A study of Mus musculus with 6 samples.

Results

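Stat2, Irf3, Irf7 and Irf9 encode transcription factors of the interferon response, and they were described here across 4 lists of CUT&Tag peaks. The selection speaks of 5 genes and names these 4, so all counts of members are over the 4 named, out of 21887 protein-coding genes with a RefSeq position on chromosomes 1 to 19, X and Y of GRCm38.p6, the assembly also called mm10. All peaks or regions within 1 kb, 2.5 kb and 50 kb of their annotated ends were collected. The samples were OG2X129 mouse embryonic fibroblasts, for which the labels name chemical reprogramming (ciPSC) with DMSO or CD and overexpression of Flag-tagged Rxra. H3K27ac, a histone acetylation found at active regulatory DNA, was profiled in 2 samples with CD and in 2 with DMSO, and each condition has 1 common region list. Flag-Rxra, the tagged retinoid X receptor alpha, was profiled in 2 samples with 1 peak list each. Inside these lists the peaks are named by codes that no sample title holds, so each list was matched to its replicate by its deposited name. The labels give neither the day of reprogramming nor the medium of the Flag-Rxra cells (CD or DMSO), and the series title names CD3254, a synthetic agonist of retinoid X receptors. They also do not say whether the replicates were separate cultures.

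Irf3 and Irf7 are the factors that sensors of viral or endogenous nucleic acid switch on by phosphorylation, and both then drive transcription of type I interferon genes. Irf3 is present in most cells before any stimulus, while Irf7 is itself induced by interferon and amplifies the response. Secreted interferon signals through its receptors and Janus kinases to Stat2, which binds Irf9 in a complex that recognises interferon-stimulated response elements. Irf9 supplies much of the DNA contact of that complex, and Stat2 supplies its activation domain. Retinoid X receptors bind DNA mainly as partners of other nuclear receptors, at repeats of the hexamer AGGTCA.

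Series-wide values set the scale for these genes. On the chromosomes used, H3K27ac was called over 37.3 Mb in CD (104437 regions) and over 31.1 Mb in DMSO (75482 regions). The Flag-Rxra lists held 28243 and 45999 peaks, of which 17623 replicate 1 peaks overlapped a replicate 2 peak and are called shared below. The lists hold no read counts, so depth is unknown, no test between conditions was possible, and no control library was used here. Of 12 fibroblast markers, 6 had a CD region and 5 a DMSO region within 1 kb of an end, beside 38.3% and 35.8% of all protein-coding genes. Col1a1 and Prrx1 had none within 2.5 kb in either list.

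The sequence before each start is shown because 3 of the 4 genes had a shared Flag-Rxra peak over or next to the start and Irf7 did not. The 250 bases before the RefSeq start are given 5′ to 3′ on the strand of the gene (build GRCm38.p6), and capitals mark bases inside the peaks of both Flag-Rxra replicates. All 4 genes had a match in the RefSeq promoter table, and Irf9 had 2 listed starts, of which the upstream one is shown.
Stat2, chr10:128270248-128270497, plus strand: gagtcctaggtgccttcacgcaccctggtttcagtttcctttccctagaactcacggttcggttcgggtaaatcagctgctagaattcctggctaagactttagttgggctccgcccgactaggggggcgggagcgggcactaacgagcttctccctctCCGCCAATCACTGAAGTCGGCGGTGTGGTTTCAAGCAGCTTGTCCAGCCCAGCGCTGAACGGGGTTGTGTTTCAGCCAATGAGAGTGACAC
Irf3, chr7:44997398-44997647, plus strand: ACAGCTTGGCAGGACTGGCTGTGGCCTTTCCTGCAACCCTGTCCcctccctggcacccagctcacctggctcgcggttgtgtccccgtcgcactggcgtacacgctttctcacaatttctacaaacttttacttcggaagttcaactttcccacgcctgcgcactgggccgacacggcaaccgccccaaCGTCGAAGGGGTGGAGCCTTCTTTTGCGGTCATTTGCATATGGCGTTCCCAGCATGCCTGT
Irf9, chr14:55603735-55603984, plus strand: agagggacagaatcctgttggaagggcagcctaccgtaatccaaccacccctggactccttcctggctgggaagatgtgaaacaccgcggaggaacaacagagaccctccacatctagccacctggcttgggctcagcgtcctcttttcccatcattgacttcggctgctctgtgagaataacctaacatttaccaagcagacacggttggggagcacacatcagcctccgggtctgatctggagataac
Irf7, chr7:141266425-141266674, minus strand: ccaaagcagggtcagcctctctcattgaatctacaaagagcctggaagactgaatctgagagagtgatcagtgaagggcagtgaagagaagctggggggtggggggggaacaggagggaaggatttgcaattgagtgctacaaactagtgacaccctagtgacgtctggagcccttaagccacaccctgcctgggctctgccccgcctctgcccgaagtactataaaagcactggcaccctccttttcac
At Stat2 the 91 bases next to the start lay in both peaks, and at Irf3 105 bases did, in 2 stretches. At Irf9 none of the 250 bases did, since the replicate 1 peak began 3 bases after the start, although the bases next to the start lay in the replicate 2 peak. At Irf7 no base lay in either peak.

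Motif letters were searched on both strands of these windows and of all 32851 promoters of the table. AGGTCA, the hexamer of nuclear receptors, was in none of the 4 windows shown, and 14.0% of all promoters held it. Its variant GGGTCA was in the Irf7 window (positions −242 to −237, counted back from the start), and 11.6% of all promoters held it. The Stat2 window held the core of an interferon response element, GAAANNGAAA, on the opposite strand as TTTCAGTTTC at −222 to −213, outside both Flag-Rxra peaks. This core was in 2.98% of all promoters and in no other window of the 4. Inside both Stat2 peaks lay 2 copies of CCAAT, the NF-Y motif, at −88 to −84 and −16 to −12, and 33.8% of all promoters held this motif. The SP/KLF motif GGGCGG was in the Stat2 window at −139 to −134 and −125 to −120 and in the Irf3 window at −70 to −65, and 32.7% of all promoters held it. The Irf3 match lay in the replicate 1 peak and in the gap between 2 replicate 2 peaks. None of the windows shown held the GAS element of STAT dimers, TTCNNNGAA, which 7.02% of all promoters held. The AP-1 motif TGACTCA was in none of them either, and 4.46% of all promoters held it. Nor was the ETS motif CCGGAAG, which was in 6.91% of all promoters. The hexamer AGGTCA repeated after 1, 4 or 5 bases was also in none, and in 0.0335%, 0.0152% and 0.00913% of all promoters. These are matches of letters in a window and not measured sites. The window of the downstream Irf9 start, which lay outside the peaks of both replicates, held AGGTCA at −135 to −130 on the opposite strand and at −27 to −22, and GGGCGG at −90 to −85.

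Flag-Rxra peaks lay at the 5′ ends of Irf3, Stat2 and Irf9 in both replicates. A shared peak within 1 kb of an annotated end was found for 3 of the 4 members, and 32.6% of all protein-coding genes had one. Irf7 had none. With replicate 1 alone 3 members had a peak, where 41.7% of genes did, and with replicate 2 alone the same count was reached, where 42.1% did. No p-value is given for 4 genes chosen with earlier results of these data known.

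At Irf3 the replicate 1 peak (chromosome 7, 44997191 to 44997702) had a fold enrichment of 9.44 over the background of the authors' peak caller and a −log10 q of 34.1. In replicate 2 it overlapped 2 peaks, a stronger one (44997587 to 44998193) with a fold of 12.2 and a −log10 q of 44.5, and a weaker one (44997242 to 44997441) with a fold of 6.82. The summits were 5 bp before the start in replicate 1 and 7 bp before it in the stronger replicate 2 peak. Irf3 and Bcl2l12, a gene of the opposite strand related to the BCL2 family, are separated by 9 bp, so this peak lay on the starts of both and cannot be assigned to one of them. A further replicate 1 peak inside Irf3 (44998617 to 44998802) had a fold of 4.65 and no counterpart in replicate 2. By fold, the Irf3 peak was the lowest of the 3 in both replicates.

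At Stat2 the peak (chromosome 10, 128270365 to 128270792 in replicate 1 and 128270407 to 128270631 in replicate 2) had folds of 10.3 and 18.6. Its −log10 q was 27.5 in replicate 1 and 46.3 in replicate 2. The summits lay 38 bp and 61 bp before the start. Apof, which encodes apolipoprotein F, overlaps the annotated span of Stat2 by 753 bp and has its end within 1 kb of the peak as well.

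At Irf9 the peak (chromosome 14, 55603988 to 55604323 in replicate 1 and 55603971 to 55604089 in replicate 2) had the highest folds of the members, 18.2 and 25.4, with −log10 q of 59.8 and 77.7. Both replicates placed the summit on the same base, 66 bp after the upstream start and before the downstream start. Only 6.06% of the 7128 genes with a shared peak had a higher fold in replicate 1, and 8.16% in replicate 2. A higher fold than at Stat2 was found for 4275 of the 7128 genes in replicate 1 and for 31.9% in replicate 2, and than at Irf3 for 69.7% and 72.4%, so Irf3 lay below the middle of bound genes in both replicates while Stat2 did so in replicate 1 only. The medians over these genes were 11.3 (replicate 1) and 15.7 (replicate 2). The peak at Irf9 is also within 1 kb of the 3′ end of Rnf31, a ubiquitin ligase subunit gene that ends 310 bp before Irf9.

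**Figure D1:**
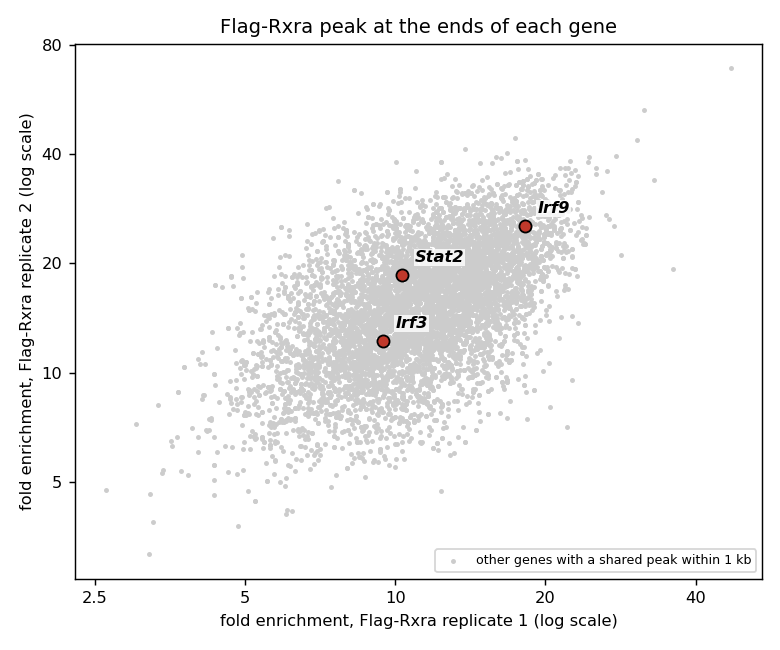
Fold enrichment of the strongest shared Flag-Rxra peak within 1 kb of a gene end in replicate 1 (horizontal, log scale) and of its strongest overlapping peak in replicate 2 (vertical, log scale). Grey points are all 7128 genes with such a peak. Red points are the members: Irf9 (18.2 and 25.4) lies toward the upper right, Stat2 (10.3 and 18.6) in the middle and Irf3 (9.44 and 12.2) below it. Irf7 has no shared peak and is not drawn.

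The 3 summits were close to the start. Of 17492 protein-coding genes of the promoter table, 15.7% had a shared summit within 100 bp of a listed start and 33.8% within 1 kb, and Stat2, Irf3 and Irf9 were among the former. All 3 member peaks also lay within 1 kb of an end of another protein-coding gene: Apof, Bcl2l12 and Rnf31.

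**Figure D2:**
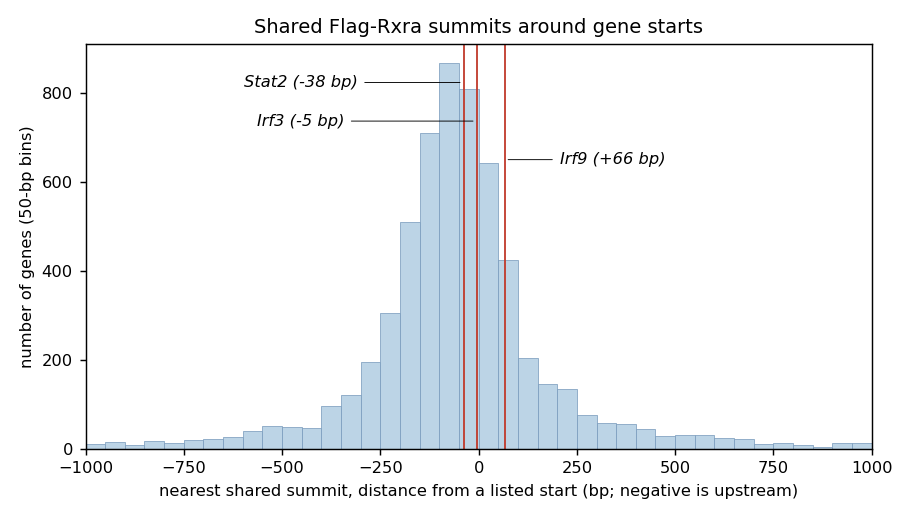
Distance of the nearest shared Flag-Rxra summit (replicate 1 position) from a listed start, in 50-bp bins, for genes of the promoter table with a summit within 1 kb (horizontal in bp, negative is upstream; vertical is the number of genes). For genes with several starts the closest was taken. Red lines mark Irf3 at −5 bp, Stat2 at −38 bp and Irf9 at +66 bp, all in the central mass of the histogram.

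Irf7 differed between the replicates. Replicate 2 held a peak inside the gene (chromosome 7, 141265139 to 141265327) with a fold of 14.8 and a −log10 q of 36.0, its summit 1180 bp after the listed start. The nearest replicate 1 peak (141228425 to 141228978; fold of 9.74) lay 34205 bp from the gene, at the ends of Phrf1 and Gm51460. The intragenic peak falls just outside the 1 kb windows and inside the 2.5 kb windows. With 2.5 kb windows, 4 of 4 members had a replicate 2 peak, 3 a replicate 1 peak and 3 a shared peak, beside 50.4%, 47.4% and 37.0% of all protein-coding genes. Within 50 kb all 4 had a shared peak, Irf7 included, as did 68.9% of all protein-coding genes. A weaker replicate 2 peak (141269180 to 141269325; fold of 4.78) lay 2681 bp upstream of Irf7, at the end of Cdhr5, and was also absent from the replicate 1 list. Irf7 was thus the member without a peak that both replicates called near its ends.

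No member start lay in an H3K27ac region of either condition. An H3K27ac region within 1 kb of either end was present at Irf3 and Irf9 and at neither Stat2 nor Irf7, in CD and in DMSO alike. That is 2 of 4 members in each list, beside 38.3% of all protein-coding genes in CD and 35.8% in DMSO. At Irf3 these regions were at the 3′ end, where Scaf1, a gene of the opposite strand, ends 97 bp away. The CD region there (45002112 to 45002291) was 180 bp wide with a fold of 2.93, and the DMSO region (45002407 to 45003631) was 1225 bp wide with a fold of 2.77 and spanned the ends of both genes. They did not overlap each other. Stat2 and Irf7 had no region within 1 kb in either list, as had 47.0% of all protein-coding genes. Within 2.5 kb, 2 of 4 members had a region in CD and 3 in DMSO, Stat2 being the addition, beside 56.2% and 49.4% of all protein-coding genes.

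Around the 5′ ends alone, 1 of 4 members had an H3K27ac region within 1 kb in each list, namely Irf9, and 32.5% of promoter-table genes had one in CD and 32.2% in DMSO. The CD region of Irf9 (55602740 to 55603154) ended 831 bp upstream of the start with a fold of 2.62 and a −log10 q of 1.08. The DMSO region (55602897 to 55603399) ended 586 bp upstream with a fold of 3.03 and a −log10 q of 1.56. The 2 regions overlapped and lay over the 3′ part of Rnf31, next to the Flag-Rxra peak of Irf9 and not on it. At Irf3 the region nearest to the start was a CD region 1418 bp upstream, inside Bcl2l12, with a fold of 3.29 and a −log10 q of 2.39, and the nearest DMSO region was 4759 bp downstream. At Stat2 the nearest CD region lay 12565 bp downstream, inside the gene (128283063 to 128283638; fold of 3.03), and the nearest DMSO region 1727 bp upstream, at Apof (128268318 to 128268771; fold of 3.34). At Irf7 the nearest were 10697 bp upstream in CD and 4971 bp upstream in DMSO.

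None of the 3 Flag-Rxra peaks at member ends overlapped an H3K27ac region of either list. Among the 6406 shared Flag-Rxra peaks within 1 kb of any protein-coding gene end, 42.4% overlapped neither list, 35.8% overlapped a CD region and 43.9% a DMSO region. At Stat2 the 1 kb windows of both gene ends were also free of H3K27ac regions, which held for 17.6% of the genes with a shared peak. The 1 kb window of the 5′ end alone was free of them at Irf3 as well. Stat2 was the 1 member with a shared peak and no H3K27ac region within 1 kb of either end, a combination found at 5.74% of all protein-coding genes.

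Counting covered bases, Stat2, Irf3 and Irf9 had fewer bases under H3K27ac regions in CD than in DMSO, both within 2.5 kb of their ends and within 50 kb, and Irf7 did not. These directions depended on the regions kept: with −log10 q of 2 or more, Irf3 had more bases in CD in both windows (by 262 and 440) and no member had fewer within 2.5 kb. With covered lengths matched between the lists, Irf7 also had fewer in CD within 50 kb (−1094). Each condition had 1 list, so these differences have no replicate error. In bulk libraries a mark on fewer cells and a weaker mark per cell cannot be told apart. Within 2.5 kb, Irf3 had 442 bases in CD and 1225 in DMSO, Irf9 had 631 and 1004, and Stat2 had 0 and 454. Irf7 had 0 in both. Fewer bases in CD were thus found at 3 of 4 members, beside 32.1% of all protein-coding genes, where 35.8% had more in CD and 32.1% were equal.

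The difference within 50 kb was −2438 bases at Irf9 (3191 in CD, 5629 in DMSO). Stat2 had 3097 and 5101, a difference of −2004, and Irf3 had 3580 and 4749, a difference of −1169. Irf7 had 5076 and 5067. Here 31.3% of all protein-coding genes had fewer bases in CD, 59.5% had more and 9.27% were equal, and the median difference over all of them was 282 bases. A lower difference than that of Irf9 was found for 3.33% of all genes, than that of Stat2 for 5.22% and than that of Irf3 for 11.2%. For Irf7 the share was 40.7%. These ranks are of differences in bases, which can be larger where more is covered. Over all protein-coding genes the median coverage within 50 kb was 3129 bases in CD and 2556 in DMSO. Every member was above that median in DMSO, and all but Stat2 were above it in CD. The 3 genes with a shared Flag-Rxra peak were the same 3 with fewer bases in CD within 50 kb, but not under the settings named above that turn Irf3 or Irf7. Among the pathway genes described below, those with a shared peak went both ways. Ifnar1 and Ticam1 had fewer bases in CD within 50 kb, and Jak2 and Stat5a had more. A link between Flag-Rxra peaks and H3K27ac coverage was not tested.

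**Figure D3:**
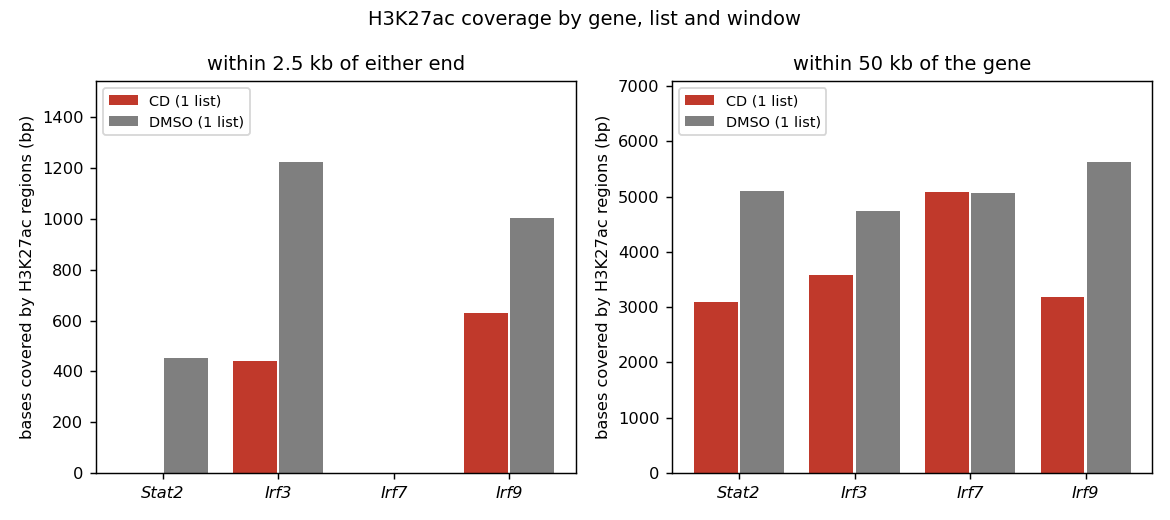
Bases covered by H3K27ac regions at each member (vertical, in bp) within 2.5 kb of either end (left) and within 50 kb of the gene (right), in CD (red) and DMSO (grey). Each bar is 1 list made from both samples, so there are no error bars. The DMSO bar is the taller for Stat2, Irf3 and Irf9 in both panels, and for Irf7 the bars are absent on the left and nearly level on the right.

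The makeup of the differences varied among the members. Stat2 had 6 CD and 10 DMSO regions within 50 kb, with median widths of 542 bp and 383 bp. At Irf9 the numbers were close, 10 and 9, and the widths were not, with medians of 272 bp in CD and 717 bp in DMSO. Irf3 had more regions in CD, 12 against 9, and narrower ones, with medians of 213 bp and 300 bp. Irf7 had 10 and 9 regions, with medians of 447.5 bp and 401 bp. Over the 4 loci, whose windows do not overlap, 38 CD and 37 DMSO regions had median widths of 269 bp and 454 bp, and the medians of the whole lists were 270 bp and 317 bp. In both conditions the median of the locus was above that of its list at Stat2, Irf7 and Irf9 (272 against 270 bp at Irf9 in CD) and below it at Irf3.

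Most of these regions were called in 1 condition. Their −log10 q ran from 1.03 to 3.12 in CD and from 1.08 to 2.75 in DMSO, where both lists stop at 1.00. Of the 38 CD regions 9 overlapped a DMSO region, or 23.7%, and of the 37 DMSO regions 9 overlapped a CD region, or 24.3%. Over the whole lists 13.9% and 19.2% did. The overlapping regions were spread unevenly: 4 CD regions at Irf9, 3 at Stat2 and 1 each at Irf3 and Irf7.

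Part of the covered length was at the ends of neighbouring genes. The bases within 1 kb of such ends made up 21.2% of the 50 kb window at Stat2, 21.3% at Irf3, 19.9% at Irf7 and 30.4% at Irf9. Other protein-coding genes numbered 8 around Stat2, 7 around Irf3, 8 around Irf7 and 11 around Irf9. At Stat2, 2144 of the 3097 CD bases and 3563 of the 5101 DMSO bases lay within 1 kb of the ends of other genes. At Irf9 these were 1393 of 3191 and 3252 of 5629, and at Irf3 978 of 3580 and 2438 of 4749. At Irf7 the order was the reverse, with 1841 of 5076 bases in CD and 1114 of 5067 in DMSO, the latter close to the share of the window. Inside the genes themselves little was covered: 576 bases of Stat2 in CD and 0 in DMSO, 180 and 442 of Irf3, 342 and 501 of Irf9, and none of Irf7. A difference within 50 kb is therefore a property of the locus and not of the gene alone.

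**Figure D4:**
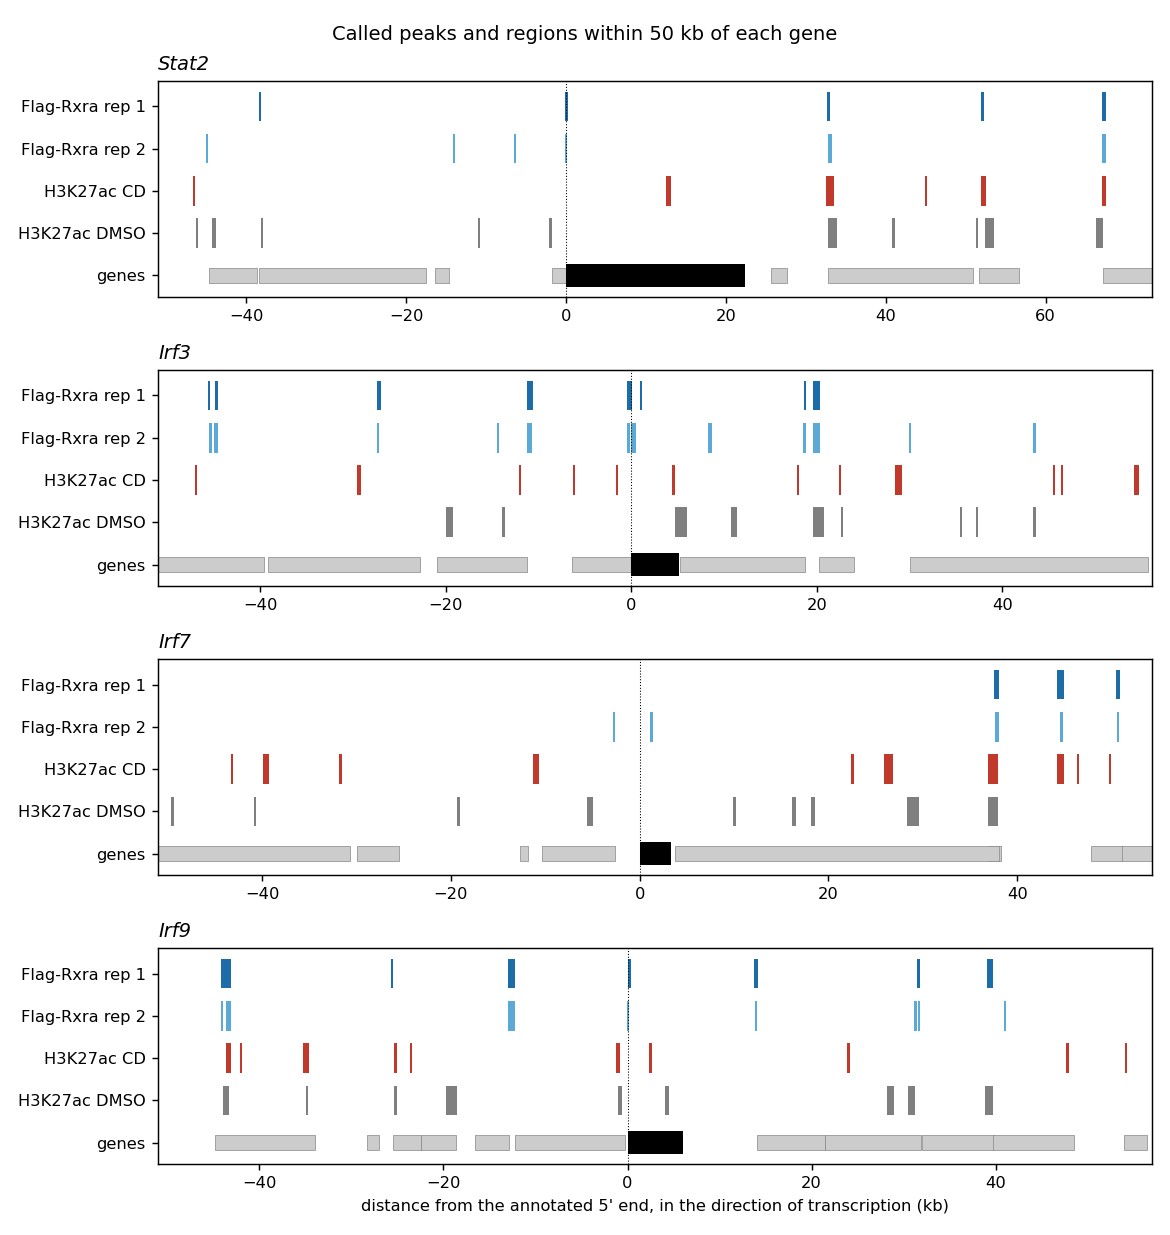
Called Flag-Rxra peaks (dark blue, replicate 1; light blue, replicate 2) and H3K27ac regions (red, CD; grey, DMSO) within 50 kb of each member. The horizontal axis is the distance in kb from the annotated 5′ end in the direction of transcription. Narrow features are widened to be visible, the member is black and other protein-coding genes are light grey. Both Flag-Rxra rows have a mark at 0 for Stat2, Irf3 and Irf9 and not for Irf7, and no H3K27ac mark covers 0.

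Marker genes of other cell types were read in the same windows. Of 8 macrophage markers, 3 had a CD and 2 a DMSO region within 1 kb of an end, beside 38.3% and 35.8% of all protein-coding genes. Their covered bases within 2.5 kb summed to 4357 in CD and 1919 in DMSO. The range over the 8 genes was 0 to 2184 in CD and 0 to 1469 in DMSO, and Adgre1, Ptprc and Itgam were at 0 in both lists. The 6 endothelial markers summed to 1925 and 1343 bases, the 5 keratinocyte markers to 489 and 296, the 6 pluripotency markers to 1905 and 2215, and the 12 fibroblast markers to 6884 and 6926. The mean over all protein-coding genes was 320 bases per gene in each list. Single genes weighed on these sums: in CD, Cd68 held 2184 of the macrophage bases and Pou5f1 1709 of the pluripotency bases. Within 1 kb, 2 endothelial, 2 keratinocyte and 1 pluripotency marker had a CD region. In DMSO these counts were 3, 1 and 1. The part of other cells in the differences at Stat2, Irf3 and Irf9 was not tested.

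The other genes of the pathway were taken from 5 lists with 38 genes, all found in the RefSeq table. A shared Flag-Rxra peak within 1 kb of an end was present at 23 of the 38, beside the 32.6% of all protein-coding genes. Among interferon receptors and Janus kinases 7 of 9 had one, all but Ifngr2 and Ifnlr1. Ifnar1, a chain of the type I interferon receptor that signals to Stat2, had folds of 21.2 and 27.2, both above those of Irf9. Ifngr1, a chain of the type II receptor, had 19.6 and 34.2. Ifnar2, the other type I chain, had 11.7 and 11.9, and Il10rb, a chain shared by several cytokine receptors, 11.6 and 14.0. Jak1, Jak2 and Tyk2 had a shared peak too.

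Of the kinases and adaptors upstream of Irf3 and Irf7, 5 of 8 had a shared peak. Myd88, the adaptor of most Toll-like receptors, had folds of 17.7 and 33.4, but this peak lay outside the gene with its summit 1137 bp from the nearest end. Tbk1, the kinase that phosphorylates Irf3, had 15.4 and 14.3, and Mavs, the mitochondrial adaptor of RNA sensors, 14.8 and 28.2. Ticam1 and Traf3 completed the group. A summit more than 1 kb from the nearest end was also found at a shared peak of Traf3 (1054 bp) and, among the negative regulators, at Socs3 (1019 bp). A shared peak within 1 kb of an end was present at 7 of the 10 negative regulators, beside 32.6% of all protein-coding genes. These were Socs1, Socs3, Pias1, Ptpn2, Irf2bp1, Irf2bp2 and Irf2bpl. Of them Ptpn2, a phosphatase of Janus kinases, had the highest replicate 1 fold (11.1 and 10.7).

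Of the 5 other STAT genes listed, Stat3 (14.8 and 16.4), Stat5a and Stat6 had a shared peak. The Stat5a summit lay 1046 bp from the nearest end. The count for the other IRF genes is not reported here. Differences in share between these small lists were not tested.

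H3K27ac around the pathway genes went both ways. Within 50 kb, 16 of the 38 had fewer covered bases in CD and 22 had more, with a median difference of 444.5 bases, beside 31.3% of all genes with fewer and their median of 282. Within 2.5 kb, 21 had fewer in CD, 15 had more and 2 were equal, with a median of −119. Of all protein-coding genes 32.1% had fewer there, 35.8% had more and 32.1% were equal, with a median of 0. The lowest differences within 50 kb were at Irf1 (2249 bases in CD and 7049 in DMSO), Ticam1 (3437 and 6298) and Ifnar1 (3530 and 6048). The highest were at Irf4 (4734 and 1590), Stat5a (6061 and 3496) and Jak2 (4417 and 1944).

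By list, fewer bases in CD within 50 kb were found at 5 of 9 receptors and Janus kinases, 4 of 6 other IRF genes, 5 of 8 kinases and adaptors, 1 of 5 other STAT genes and 1 of 10 negative regulators. The median differences were −798 bases for receptors and Janus kinases, −593 for other IRF genes and −624.5 for kinases and adaptors. They were 1727 for other STAT genes and 999.5 for negative regulators. Over all protein-coding genes the median was 282 bases, with fewer bases in CD at 31.3% and more at 59.5%. Ifnar1, Ifnar2, Ifngr2 and Il10rb lie together on chromosome 16 and Stat3, Stat5a and Stat5b together on chromosome 11, so their windows share regions and the counts are not over separate loci.

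**Figure D5:**
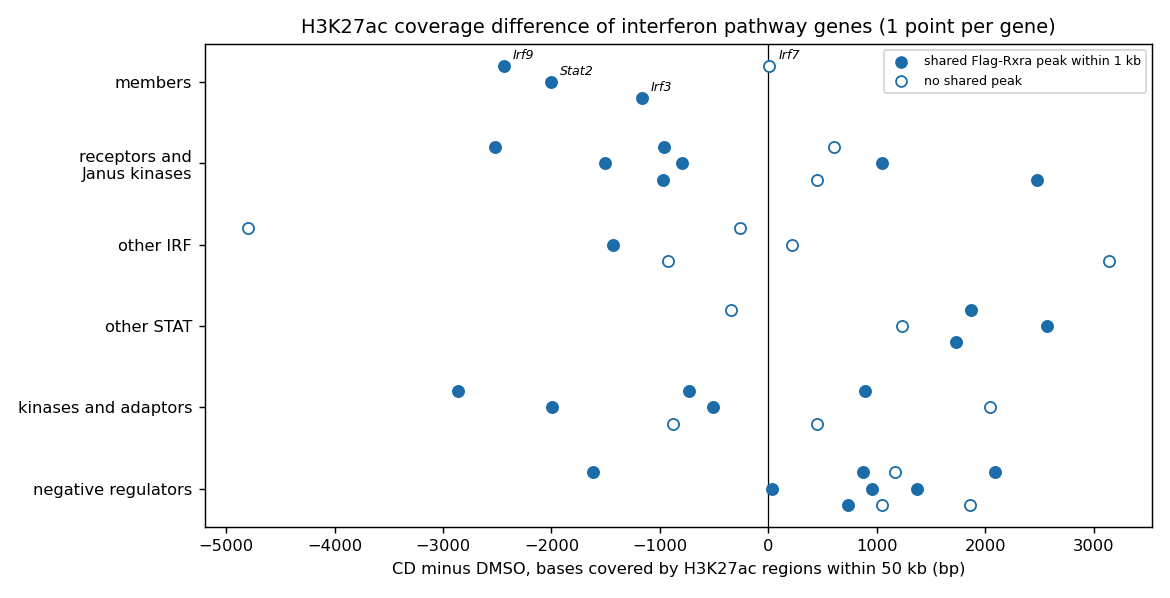
CD minus DMSO difference in bases covered by H3K27ac regions within 50 kb (horizontal, in bp), 1 point per gene, for the members and the 5 pathway lists (rows). Points are filled where the gene has a shared Flag-Rxra peak within 1 kb of an end, and points of a row are shifted vertically for legibility only. Irf9, Stat2 and Irf3 lie left of 0 and Irf7 at 0, while the negative regulators and other STAT genes lie mostly to the right.

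The pathway gene most like each member was the one with the smallest distance between percentile ranks of covered bases within 2.5 kb, over the 4 lists. For Stat2 it was Ifnar1 (distance of 15.41 percentile points). Ifnar1 had 435 and 345 bases under Flag-Rxra peaks in replicates 1 and 2, where Stat2 had 428 and 225. Like Stat2, Ifnar1 had H3K27ac bases within 2.5 kb in DMSO only (682). Unlike Stat2, Ifnar1 had a DMSO region within 1 kb of an end. For Irf9 it was Irf2 (17.74), a repressor of interferon genes, with 369 and 191 bases of Flag-Rxra against 336 and 119, and 403 and 701 bases of H3K27ac in CD and DMSO. Unlike Irf9, Irf2 had no Flag-Rxra peak and no H3K27ac region within 1 kb of an end. For Irf3 it was Ptpn6 (21.99), a phosphatase of blood cells, which unlike Irf3 had no Flag-Rxra peak within 1 kb of an end in either replicate. For Irf7 it was Ifngr2 (30.69), which like Irf7 had a Flag-Rxra peak within 2.5 kb in replicate 2 only. Unlike that of Irf7, the Ifngr2 peak was within 1 kb of an end. Ifngr2 also had 158 H3K27ac bases in CD within 2.5 kb, where Irf7 had 0 in both lists.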

How the data were processed

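CUT&Tag libraries of 6 samples in 3 groups of 2 were used through 4 deposited peak lists. Per the submitters' processing notes the tools were fastp 0.20.1, Bowtie2 2.2.5, MACS2 2.1.2 and deepTools 3.4.3 with mm10. How replicates were combined for H3K27ac and whether a control entered peak calling are not given in the sources used here. The fold enrichment is a ratio over background and −log10 q is the caller's value, both as deposited by the authors. The broad H3K27ac and narrow Flag-Rxra lists stop at −log10 q of 1.00 and 5.00, so their values are not on a common scale. Depth is unknown.

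Overlap meant 1 bp or more, a shared peak is a replicate 1 peak that overlaps a replicate 2 peak, and overlapping regions were merged before bases were counted. Windows of 1 kb and 2.5 kb surround both annotated ends, and the 50 kb window is the gene with 50 kb on each side. Starts and strands came from the RefSeq promoter table. Computations used Python 3.11.15, numpy 2.4.6, pandas 2.3.3 and matplotlib 3.10.9, and the overlap and coverage code was tested on simulated peaks. No test was run, because the lists hold no counts. Named were all members, neighbours of their peaks, pathway genes with a shared peak (values for the 10 with the highest replicate 1 fold), the 3 highest and 3 lowest differences within 50 kb, and the pathway gene most like each member. A result for 1 pathway gene that this rule names is not reported here. The members and lists were chosen with earlier results of these data known. Alternatives were a 50% overlap, stricter −log10 q, other windows, single replicates, matched covered lengths and weighting by fold.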

Additional observations from a re-analysis of the deposited data

How the results depend on the processing

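The count of 3 members with a shared Flag-Rxra peak was also 3 without replicate 1, without replicate 2, with −log10 q of 20 or more (24.2% of all genes), with a 2.5 kb window and at 5′ ends only, an alternative chosen after seeing the data. With an overlap of 50% of both peaks it was 1, Stat2, beside 20.2% of all genes. With H3K27ac regions of −log10 q of 2 or more, 0 members were marked in CD and 0 in DMSO (6.65% and 8.84% of all genes). With regions at least 50% inside the window, 1 member was marked in CD and 2 in DMSO (34.5% and 32.6% of all genes), and at 5′ ends only it was 1 in CD and 1 in DMSO. Fewer bases in CD within 2.5 kb were found at 0 members with regions of 2 or more (11.8% of all genes), where Irf3 had a difference of 262 in place of −783. Within 50 kb that threshold left 2 members with fewer bases in CD (39.5% of all genes): Irf9 (−2295) and Stat2 (−982), while Irf3 turned to 440. With covered lengths matched between the lists all 4 had fewer in CD within 50 kb (42.6% of all genes, against 31.3% before matching), since Irf7 turned to −1094. Weighting by fold changed no direction in either window. The causes were not tested. Of the regions at the 4 loci, 4 of 38 in CD and 7 of 37 in DMSO reached a −log10 q of 2, beside 13.8% and 18.3% of the whole lists. Depth is unknown, and the H3K27ac lists have no replicates. No paired analysis was possible because both samples of an H3K27ac condition share 1 list.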

Other observations

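The loci around the 4 genes held 18 shared Flag-Rxra peaks, 3 at member ends, 11 at the ends of other protein-coding genes only and 4 at no protein-coding gene end. Of the 15 peaks away from member ends, 6 lay in an H3K27ac region, 5 in CD and 5 in DMSO. Among all shared peaks within 1 kb of a protein-coding gene end, 35.8% overlapped a CD region and 43.9% a DMSO region. That set leaves out peaks at no gene end, such as 4 of these 15. Near Stat2, the peak at the start of Pan2, a deadenylase subunit gene (chromosome 10, 128303205 to 128303518), had folds of 18.0 and 10.6 and lay in H3K27ac regions of both lists. It was stronger than the Stat2 peak in replicate 1 and weaker in replicate 2. The peak at Cs, which encodes citrate synthase, also lay in both and had folds of 11.8 and 17.3. Near Irf9, the peak between Psme2, a proteasome activator subunit gene induced by interferon, and Rnf31 (chromosome 14, 55591002 to 55591733) had folds of 13.0 and 18.2 and lay in no H3K27ac region.

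Near Irf7, the strongest of these 18 peaks by replicate 2 fold (chromosome 7, 141221589 to 141222254) lay 96 bp from Mir210, the gene of a hypoxia-induced microRNA, and about 41 kb from Irf7. Its folds were 13.9 and 32.6, and only 0.759% of replicate 2 peaks had a higher fold. It overlapped an H3K27ac region in CD (141221569 to 141222320; −log10 q of 1.30) and none in DMSO. At Scaf1 and Rras, near Irf3, a peak with folds of 10.9 and 11.8 had the opposite pattern, with an H3K27ac region in DMSO (45017220 to 45018383; −log10 q of 1.65) and none in CD. The H3K27ac lists have no replicates, and neither difference was tested.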
